A study of Rattus norvegicus with 144 samples.

Results

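The solute carriers are the genes whose annotated symbol begins with Slc or Slco followed by a number, and 222 of them were measured in rat liver after acetaminophen. They are 222 of the 18978 gene rows of the arrays and belong to 52 families. Slc38a2, Slc13a5, Slc7a11, Slc30a1, Slc27a5, Slc10a1 and Slco1a1 also carry such symbols and were left out by the rule. Slc4a1ap and Slc7a6os match by name but are an adaptor protein and a neighbouring opposite-strand gene, not carriers. Acetaminophen is a painkiller whose overdose damages hepatocytes. Male F344/N rats, an inbred strain, aged 10 to 12 weeks received 0 (vehicle), 150, 1500 or 2000 mg/kg by gavage in 2 portions in 0.5% ethyl cellulose. Livers were taken at 3, 6 or 24 h, and each of the 12 groups by time and dose held 6 rats. Left lobe RNA of each rat went onto 2 two-colour arrays of opposite dye assignment, each time beside a time-matched pool made from 6 vehicle rats.

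Solute carriers are membrane proteins that move small molecules across the plasma membrane or into organelles, mostly driven by gradients of ions or of the substrate itself. Hepatocytes use them to take up bile acids, drugs, sugars and amino acids from the blood, and their mitochondria use carriers of family 25 to exchange metabolites with the cytosol. The members were grouped by the substrate their family is best known for, so that amino acid carriers form a group of 38, carriers of inorganic ions, acid and base 40, organic anion and cation carriers 25, mitochondrial carriers 22, metal carriers 20, carriers of nucleosides and nucleotide sugars 20, and sugar carriers 19. Smaller groups were monocarboxylate and dicarboxylate carriers (10), fatty acid carriers (4) and a mixed group for peptides, vitamins and choline (24).

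Values below are log2 ratios of a rat's RNA to the vehicle pool of its time, averaged over its 2 arrays, and differences are dosed minus vehicle on the log2 scale. The log base of the deposited values is not stated and log10 was assumed. The direction (Cy5 over Cy3) is likely rather than stated, and the opposite one would turn the sign of each difference. It rests on the drug efflux pump Abcb1a, known to rise in injured liver, which was higher by 2.75 ± 0.35 (SE) at 24 h and 2000 mg/kg. At 6 h and 2000 mg/kg the same gene had -1.36 ± 0.35 (limma's adjusted p = 0.00517), so the choice depends on 24 h. Being ratios, the values give no order of abundance between genes. In whole liver, fewer cells of a type and less RNA per cell cannot be told apart. A change was called at an adjusted p of 0.05 or below, with Benjamini-Hochberg adjustment of limma's p over all 18978 rows. These rows include 9320 probes without a gene symbol, each a row of its own. The number of rats limits the precision. Of the 72 rats, 23 had both arrays in a set that shares 500 blank probes, and 0 of the vehicle rats at 3 h were among them. At 3 h, 3 of 6 rats given 2000 mg/kg and 1 of 6 given 1500 mg/kg were, so the set was uneven between doses there. Within the rats outside that set, fewer in number, 7, 11 and 41 carriers passed at 3, 6 and 24 h and 2000 mg/kg, and within the set 27 and 46 passed at 6 and 24 h, against 16, 37 and 61 in all rats.

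At 150 mg/kg no carrier passed the test in limma, while more carriers passed at later times after both toxic doses. At 3 h, 9 carriers rose and 2 fell after 1500 mg/kg, where 3.39% of all rows rose and 2.46% fell. After 2000 mg/kg, 14 rose and 2 fell, against 4.92% and 4.1% of all rows. The carriers' own shares at 2000 mg/kg were 6.31% higher and 0.901% lower. At 6 h, 14 rose and 12 fell after 1500 mg/kg (3.65% and 3.23% of all rows), and 17 rose and 20 fell after 2000 mg/kg (5.31% and 5.84%). By 24 h, 23 rose and 36 fell after 1500 mg/kg, with 10.2% and 11.4% of all rows. After 2000 mg/kg, 25 rose and 36 fell, with 11.8% and 12.5% of all rows. The carriers' 16.2% falling at that dose stood beside 12.5%, and their 11.3% rising beside 11.8%, so the rising share was close to that of all rows. Their median difference was -0.06 at 24 h and 2000 mg/kg, against -0.01 over all rows. In all, 94 members passed in at least 1 of the 6 comparisons of a toxic dose with vehicle, 128 passed in none and 2 passed in all 6.

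**Figure D1:**
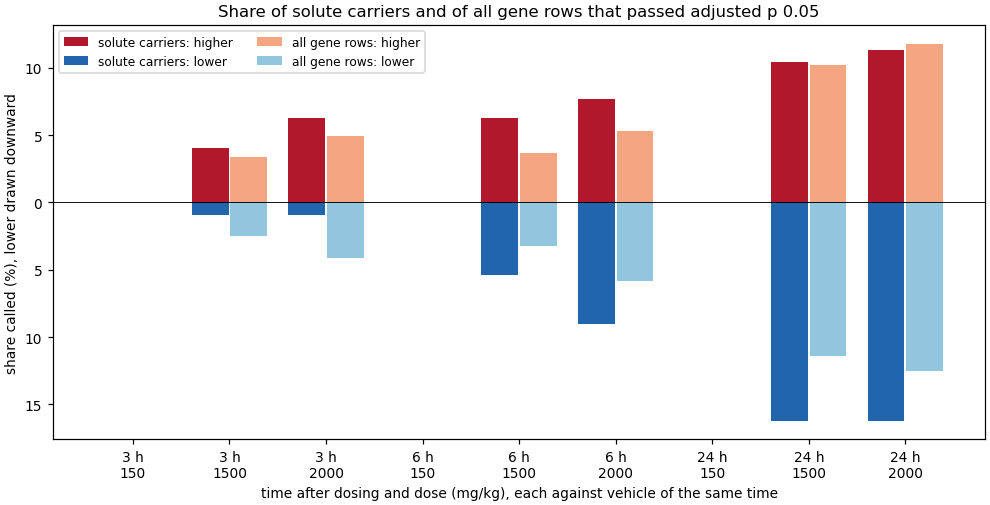
Share of the 222 solute carriers (dark bars) and of all 18978 gene rows (pale bars) that passed an adjusted p of 0.05, in percent, by time and dose against vehicle of the same time. Rises are drawn upward and falls downward; no bar is seen at 150 mg/kg, and the largest share is the 16.2% of carriers that fell at 24 h.

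The 2 toxic doses share their vehicle rats at each time, so their calls are not independent. At 3, 6 and 24 h, 8 of 19, 24 of 39 and 49 of 71 members called at either dose passed at both. At 2000 mg/kg, 10 members passed at both 3 and 6 h, 17 at both 6 and 24 h and 8 at both 3 and 24 h. Of the 17, Slc17a3, Slc2a13 and Slc31a2 went in opposite directions. In the heat map of the 94 members, mitochondrial carriers such as Slc25a25 were red at 3 h and pale at 24 h, while Slc7a1 and Slc15a1 were darkest at 24 h.

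**Figure D2:**
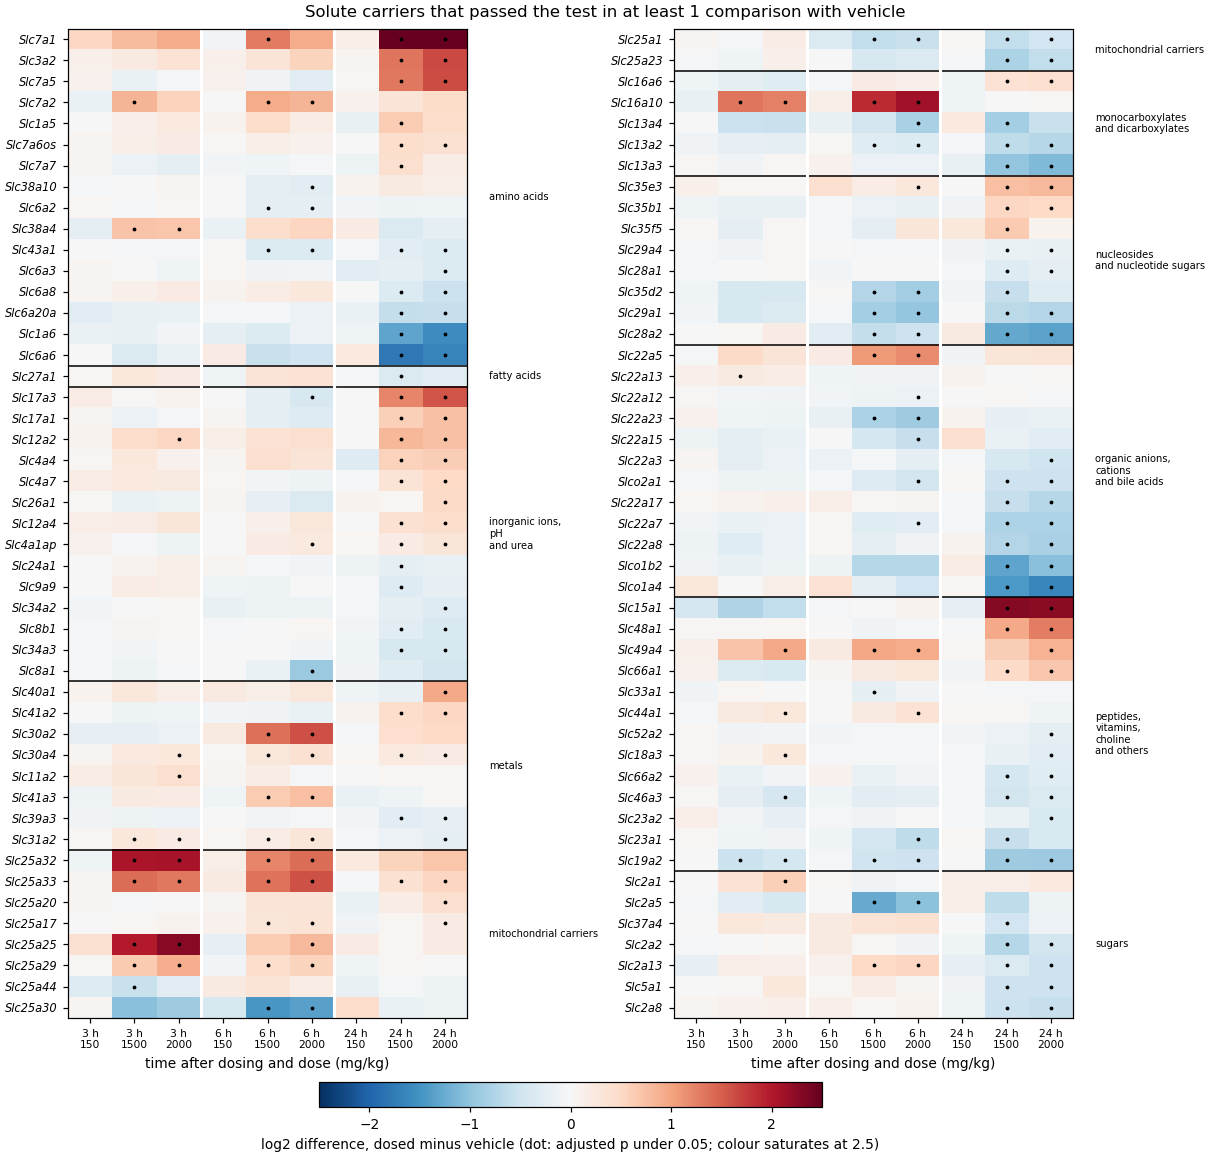
Log2 difference, dosed minus vehicle, of each of the 94 solute carriers that passed the test at least once (rows, grouped by substrate) at each time and dose (columns). Red is higher and blue is lower than vehicle, a dot marks an adjusted p under 0.05, and the colour saturates at 2.5; the columns at 150 mg/kg hold no dot.

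Mitochondrial carriers gave the largest early rises. At 3 h and 2000 mg/kg, 4 of 22 rose (Slc25a25, Slc25a32, Slc25a33 and Slc25a29) and none fell, with a median difference of 0.14 against 0.00 over all rows. Of all rows 4.92% rose and 4.1% fell, and the group was not tested against them. Slc25a25, a calcium-regulated exchanger of ATP-magnesium and phosphate, had log2 ratios of 1.68 (lowest), 2.08 (median) and 2.50 (highest) in rats given 2000 mg/kg at 3 h, against -0.89, -0.22 and 0.67 in vehicle rats. All 6 dosed rats lay above all 6 vehicle rats. The difference was 2.27 ± 0.25 (SE), 4.83-fold, with limma's adjusted p = 5.18e-10. It was 1.99 ± 0.25 at 1500 mg/kg. By 6 h the 2000 mg/kg difference was 0.81, which lost the threshold when any of 5 single rats was left out, and at 24 h it was 0.20 (adjusted p = 0.641).

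Slc25a32 carries folate and FAD into mitochondria. Its ratios at 3 h were 1.39, 2.58 and 2.74 (lowest, median, highest) in rats given 2000 mg/kg, against -0.41, 0.28 and 1.31 in vehicle rats. The groups did not overlap, although 1 dosed rat, at 1.39, stood close to the highest vehicle rat. The difference was 2.06 ± 0.29 (adjusted p = 2.31e-07), it was still 1.40 ± 0.29 at 6 h (adjusted p = 0.000352), and the 0.70 seen at 24 h missed the threshold (adjusted p = 0.0691).

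Slc25a33 carries pyrimidine nucleotides. Rats given 2000 mg/kg had 0.94, 1.25 and 1.43 at 3 h, against -0.31, -0.13 and 0.31 in vehicle rats, with no overlap. Its differences at 2000 mg/kg were 1.31 ± 0.14 at 3 h, 1.59 ± 0.14 at 6 h and 0.53 ± 0.14 at 24 h, and it passed at 1500 mg/kg at each time as well (1.39, 1.36 and 0.38). The 0.38 at 24 h did not stay past the threshold when any of 8 single rats was left out. Slc25a29, a carrier of basic amino acids, had 0.71, 0.85 and 1.06 at 3 h in rats given 2000 mg/kg, against -0.35, 0.02 and 0.16 in vehicle rats. Here too the groups were apart. It differed by 0.91 ± 0.11 (adjusted p = 7.15e-09), by 0.55 at 6 h and by -0.01 at 24 h.

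The promoters of Slc25a25 and Slc25a33 are shown because both genes rose at 3 h and both windows hold the 8 letters TGACGTCA, known as the cAMP response element. The window is the 250 bases before the gene's start in RefSeq (build GRCr8), written 5′ to 3′ on the gene's strand, with the match in capitals. Slc25a25 lies on the minus strand (chr3:36116582-36116831) and its match begins 158 bases before the start. Slc25a33 is on the minus strand too (chr5:165502974-165503223), with a match 84 bases before the start.
Slc25a25: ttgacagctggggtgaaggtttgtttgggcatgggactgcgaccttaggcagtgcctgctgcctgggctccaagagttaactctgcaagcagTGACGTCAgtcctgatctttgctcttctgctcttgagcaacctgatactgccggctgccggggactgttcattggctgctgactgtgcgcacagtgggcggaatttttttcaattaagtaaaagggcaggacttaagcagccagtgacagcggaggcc
Slc25a33: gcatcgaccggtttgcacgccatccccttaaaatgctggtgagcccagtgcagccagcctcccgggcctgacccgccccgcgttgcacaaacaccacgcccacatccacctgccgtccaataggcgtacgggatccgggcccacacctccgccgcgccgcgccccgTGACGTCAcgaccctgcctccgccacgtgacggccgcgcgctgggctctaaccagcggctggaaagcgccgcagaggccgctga
These letters, which read the same on both strands, occur in 1.59% of all 33469 promoter windows and in 5 of the 201 windows of the members (2.49%). A window was found for 190 of the 222 members. A match describes the letters and is not evidence of binding.

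Other mitochondrial carriers moved the opposite way or later. Slc25a30 had -2.18, -1.68 and -1.01 at 6 h in rats given 2000 mg/kg, against -0.95, -0.22 and 0.29 in vehicle rats. The groups did not overlap, but the highest dosed and lowest vehicle rats almost met. The fall was -1.36 ± 0.36 (adjusted p = 0.00581), and at 24 h the difference was -0.13. Slc25a1, which exports citrate for fatty acid synthesis, fell by 0.55 at 6 h and by 0.48 at 24 h (2000 mg/kg). Slc25a20, which brings acylcarnitines into mitochondria, rose by 0.40 ± 0.13 at 24 h and 2000 mg/kg, but by 0.29 (adjusted p = 0.0962) without 1 of the dosed rats. At 24 h and 2000 mg/kg the group stood at 3 higher, 2 lower and 17 not called, beside 11.8% higher and 12.5% lower over all rows.

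**Figure D3:**
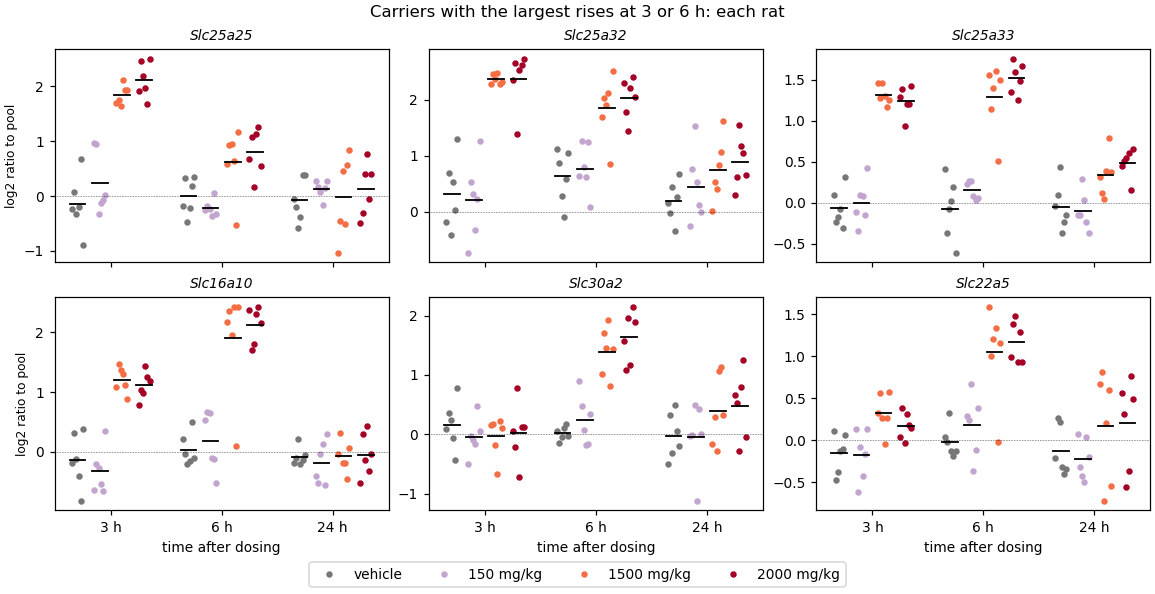
Log2 ratio to the vehicle pool of each rat (points) and group mean (short lines) by time and dose for Slc25a25, Slc25a32, Slc25a33, Slc16a10, Slc30a2 and Slc22a5. The 3 mitochondrial carriers and Slc16a10 are raised at 3 h at both toxic doses, Slc30a2 and Slc22a5 are raised at 6 h, and Slc16a10 is back at vehicle values at 24 h; the y axes differ between panels.

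Carriers of amino acids rose at separate times. Slc16a10, placed by its family number with the monocarboxylate carriers, takes aromatic amino acids. At 6 h it had 1.71, 2.23 and 2.43 in rats given 2000 mg/kg, against -0.21, -0.06 and 0.50 in vehicle rats. The groups were well apart. The difference of 2.10 ± 0.23 was 4.27-fold (adjusted p = 1.03e-09), and it had been 1.25 ± 0.23 at 3 h. At 24 h it was 0.03 ± 0.23. Slc7a2, which takes up arginine and lysine, rose by 0.85 ± 0.20 at 6 h and 2000 mg/kg and had 0.46 at 24 h (not past the threshold). Slc38a4, a sodium-coupled carrier of neutral amino acids in hepatocytes, rose by 0.70 ± 0.19 at 3 h and 2000 mg/kg, and its difference at 24 h was -0.23, not past the threshold.

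At 24 h and 2000 mg/kg, 4 of the 38 members in the amino acid group rose (Slc7a1, Slc7a5, Slc3a2 and Slc7a6os, the last not a carrier) and 6 fell, with a median of -0.06. At 1500 mg/kg 6 rose and 5 fell. Over all rows 11.8% rose and 12.5% fell at 2000 mg/kg, and 10.2% and 11.4% at 1500 mg/kg. The group was not tested against these shares. Slc7a1, another carrier of arginine and lysine, gave the largest rise of all members. It had 2.21, 2.68 and 3.72 at 24 h in rats given 2000 mg/kg, against -0.91, -0.07 and 0.31 in vehicle rats. Nothing overlapped, and the difference was 2.95 ± 0.33 or 7.72-fold (adjusted p = 2.02e-10). After 1500 mg/kg it was 2.66. At 6 h the response was uneven between rats: 1.30 at 1500 mg/kg passed, but not without 1 of the dosed rats (adjusted p = 0.0538), and 0.92 at 2000 mg/kg was not past the threshold.

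Slc3a2 is the heavy chain that brings several amino acid exchangers to the membrane, and Slc7a5, a carrier of leucine and other large neutral amino acids, is one of its partners. Both rose at 24 h. Slc7a5 had 0.82, 2.01 and 2.52 in rats given 2000 mg/kg, against -0.03, 0.16 and 0.67 in vehicle rats. Slc3a2 had 2.04, 2.23 and 2.72 in the dosed rats, against 0.06, 0.78 and 0.87 in vehicle rats. Neither gene's groups overlapped at 2000 mg/kg. The differences were 1.64 ± 0.20 for Slc7a5 (adjusted p = 2.37e-09) and 1.66 ± 0.22 for Slc3a2 (adjusted p = 2.03e-08), beside 1.31 and 1.34 at 1500 mg/kg. Slc1a5, a glutamine carrier, rose by 0.63 at 1500 mg/kg, a call that did not survive leaving out any of 9 single rats, and had 0.44 at 2000 mg/kg, not past the threshold. Slc38a3, the glutamine carrier of hepatocytes, had differences of -0.03 and 0.07 at 1500 and 2000 mg/kg, neither past the threshold.

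The promoter of Slc7a1 is shown because it gave the largest rise and its window holds TGATGAAAC, a match to TGATGNAAN, the letters of an amino acid response element. The window is on the plus strand at chr12:11664238-11664487 and the match begins 30 bases before the start.
Slc7a1: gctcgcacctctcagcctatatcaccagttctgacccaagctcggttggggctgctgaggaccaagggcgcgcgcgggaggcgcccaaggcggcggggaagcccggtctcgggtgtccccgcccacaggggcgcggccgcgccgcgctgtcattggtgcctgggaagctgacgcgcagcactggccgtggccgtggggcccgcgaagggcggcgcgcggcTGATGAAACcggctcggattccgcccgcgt
On either strand TGATGNAAN occurs in 3.38% of all windows and in 5 of the 201 member windows (2.49%), Slc49a4 being another of them that rose at 24 h.

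Other amino acid carriers fell at 24 h. Slc6a6, which takes up taurine, had -1.75, -1.27 and -0.63 in rats given 2000 mg/kg, against -0.29, 0.45 and 0.97 in vehicle rats. No dosed rat reached the lowest vehicle rat. It fell by 1.67 ± 0.25 (adjusted p = 3.07e-07) and, at 1500 mg/kg, by 1.78. Slc1a6, a glutamate carrier best known from Purkinje neurons, had -2.16, -1.32 and -1.06 in rats given 2000 mg/kg, against -0.04, 0.07 and 0.60 in vehicle rats. These groups were separate by a wide margin. The difference was -1.58 ± 0.15 (adjusted p = 1.37e-12). Slc6a8, the creatine carrier, fell by 0.53 at 2000 mg/kg and Slc6a20a, a proline carrier, by 0.57.

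Several carriers that take drugs and bile acids into the hepatocyte fell at 24 h. Of the 25 carriers of organic anions, cations and bile acids, 7 fell and 0 rose at 2000 mg/kg, and 6 fell and 0 rose at 1500 mg/kg, with medians of -0.13 and -0.16. Over all rows 12.5% fell and 11.8% rose at 2000 mg/kg, and 11.4% and 10.2% at 1500 mg/kg, and the group was not tested against them. Slco1a4, an uptake carrier of bile acids and digoxin-like drugs, had -2.95, -1.83 and -0.68 in rats given 2000 mg/kg, against -0.61, 0.01 and 0.36 in vehicle rats. The groups did not overlap, and the dosed rats were spread more widely than the vehicle rats. The fall was -1.63 ± 0.30 (adjusted p = 1.94e-05), and it was -1.44 ± 0.30 at 1500 mg/kg. Slco1b2, the liver uptake carrier of many anionic drugs, had -2.02, -0.39 and 0.25 in rats given 2000 mg/kg, against -0.11, 0.60 and 0.73 in vehicle rats. The groups overlapped because 1 vehicle rat lay at -0.11, and the difference was -1.04 ± 0.27 (adjusted p = 0.00218).

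Members of the Slc22 family followed at smaller size. At 24 h and 2000 mg/kg, Slc22a7 and Slc22a8, which take up organic anions, fell by 0.77 ± 0.10 and 0.81 ± 0.16. Slc22a17, known as a receptor for lipocalin 2, fell by 0.72 ± 0.10. Slc22a23, an orphan carrier, moved earlier, with -0.89 ± 0.14 at 6 h and -0.16 at 24 h. Slc47a1 and Slco2b1 did not pass in any of the 6 comparisons, and their 24 h differences at 2000 mg/kg were -0.15 and -0.13.

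Slc22a5 brings carnitine into cells and moved earlier. It had 0.93, 1.14 and 1.48 at 6 h in rats given 2000 mg/kg, against -0.19, -0.07 and 0.33 in vehicle rats. No rat of one group reached the other. The difference was 1.19 ± 0.21 (adjusted p = 2.91e-05), and at 24 h it was 0.33 and no longer past the threshold.

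**Figure D4:**
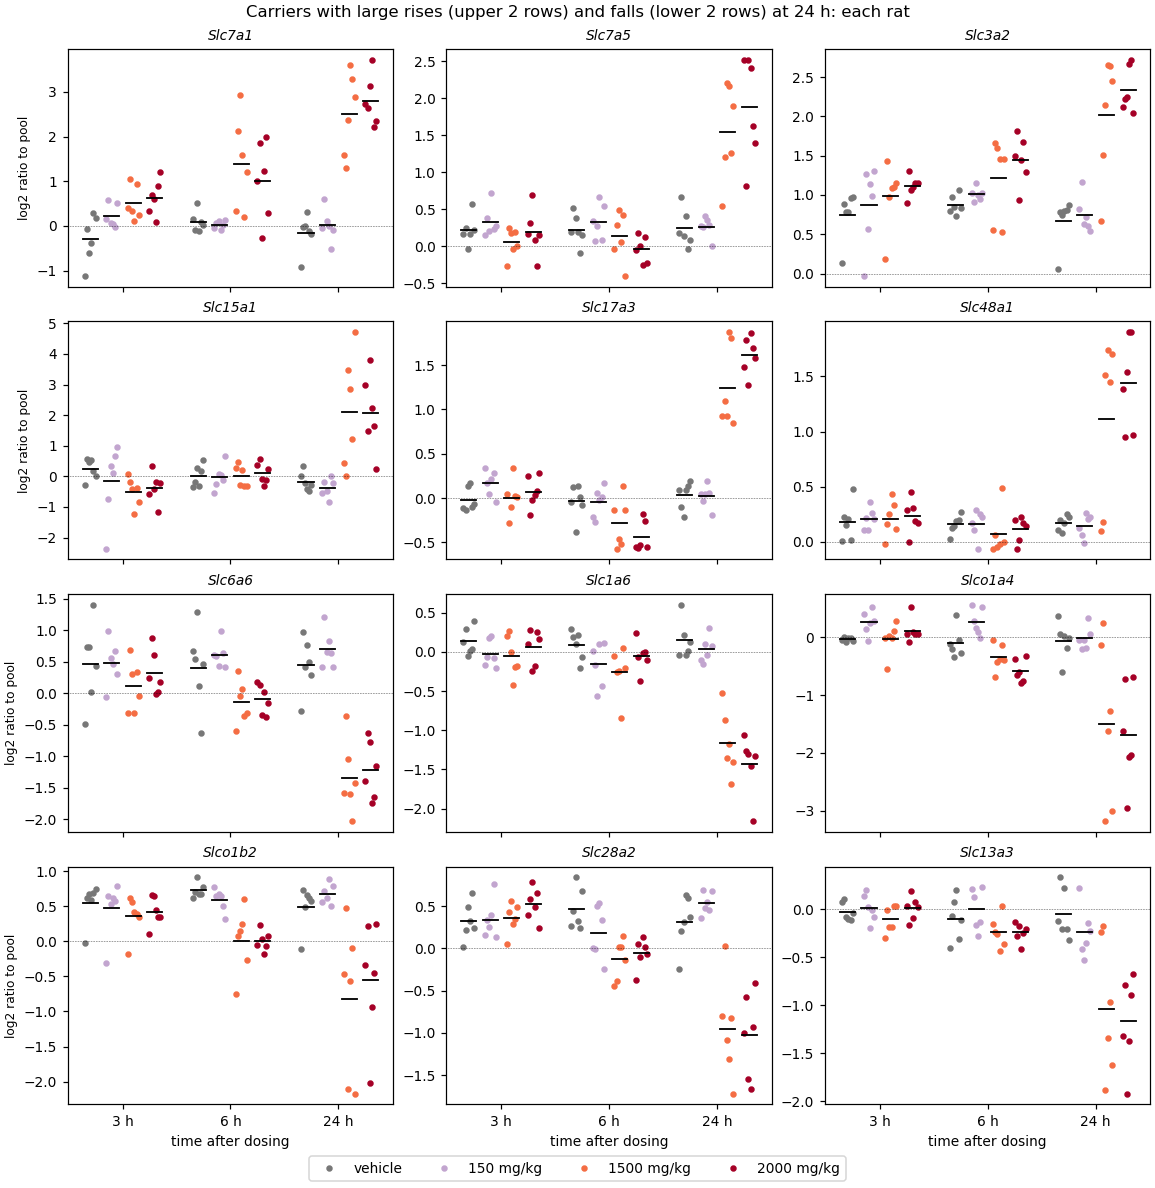
Log2 ratio to the vehicle pool of each rat (points) and group mean (short lines) by time and dose for 6 carriers that rose at 24 h (Slc7a1, Slc7a5, Slc3a2, Slc15a1, Slc17a3 and Slc48a1) and 6 that fell (Slc6a6, Slc1a6, Slco1a4, Slco1b2, Slc28a2 and Slc13a3). Most rats of the toxic doses at 24 h stand apart from vehicle rats in each panel, with 2 rats given 1500 mg/kg close to vehicle for Slc48a1, Slco1a4 and Slc13a3; Slco1b2 is also lower at 6 h, which did not pass, and the y axes differ between panels.

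Efflux pumps of the ABC family, which are not solute carriers, are given for comparison from a list of 13, of which 11 were measured. At 24 h and 2000 mg/kg 6 rose and 3 fell, with a median of 0.45. Abcb1a is 1 of the 6, and its rise was set in advance because the direction of the ratios rests on it. Abcc4, a basolateral export pump, rose by 1.57 ± 0.21, while the bile salt export pump Abcb11 fell by 0.63. Of 11 measured transcriptional regulators, 1 rose at that time and dose (Atf4 of the amino acid response, 1.24 ± 0.21) and 2 fell (Nr0b2 at -2.24 and the bile acid receptor Nr1h4 at -0.54). At 3 h and 2000 mg/kg 1 rose and 4 fell, among them Foxa2 (-2.65), Nfe2l2 (-1.19) and Mtf1, the metal-responsive factor (-0.82), which had 0.11 at 6 h and did not pass. Their part in the carriers' changes was not tested. Among 14 measured genes that act beside carriers, 3 rose and 3 fell at 24 h and 2000 mg/kg. They included the transferrin receptor Tfrc, higher by 0.95, and Mpc1, a subunit of the mitochondrial pyruvate carrier, lower at -0.88 ± 0.09. Over all rows 11.8% rose and 12.5% fell at that time and dose, and 4.92% and 4.1% at 3 h and 2000 mg/kg. None of these lists was tested against them.

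Among metal carriers at 6 h and 2000 mg/kg, 4 of 20 rose (Slc30a2, Slc30a4, Slc31a2 and Slc41a3) and 0 fell, with a median of -0.01. Of all rows 5.31% rose and 5.84% fell, and the group was not tested against them. Slc30a2, which loads zinc into vesicles, had 1.08, 1.73 and 2.15 at 6 h in rats given 2000 mg/kg, against -0.14, 0.01 and 0.18 in vehicle rats. The vehicle rats were tight and all dosed rats lay above them. The difference of 1.62 ± 0.25 (adjusted p = 2.59e-06) stood beside -0.14 at 3 h and 0.50 at 24 h, neither past the threshold. Slc30a4, another zinc carrier of vesicles, rose by 0.26, 0.38 and 0.21 at 3, 6 and 24 h. Slc41a3, a magnesium carrier, rose by 0.76 at 6 h, but its 3 probes ranged from 0.03 to 1.97.

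The promoter of Slc30a2 is shown because the gene carries zinc and 1 of its 2 RefSeq windows holds TGCACACG, a match to TGCNCNCG, the core of the metal response element. That window is on the plus strand at chr5:151843201-151843450 and the match begins 89 bases before the start.
Slc30a2: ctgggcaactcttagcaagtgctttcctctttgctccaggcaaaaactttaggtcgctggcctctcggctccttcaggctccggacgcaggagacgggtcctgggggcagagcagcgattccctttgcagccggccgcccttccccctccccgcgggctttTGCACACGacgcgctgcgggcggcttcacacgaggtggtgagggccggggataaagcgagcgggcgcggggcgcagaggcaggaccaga
The core occurs on either strand in 9.67% of all windows and in 31 of the 201 member windows (15.4%), so it is a common run of letters.

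Slc48a1 moves heme out of lysosomes. At 24 h it had 0.95, 1.47 and 1.90 in rats given 2000 mg/kg, against 0.08, 0.19 and 0.25 in vehicle rats. The groups were far apart, with a difference of 1.27 ± 0.16 (adjusted p = 5.64e-09). Slc40a1, ferroportin, the exporter of iron, had at 24 h 0.41, 0.95 and 3.63 in rats given 2000 mg/kg, against 0.06, 0.47 and 0.98 in vehicle rats. The groups overlapped, and 1 dosed rat at 3.63 stood above the others, though the check for outlying rats below did not flag it. The difference of 0.95 ± 0.27 (adjusted p = 0.0057) was 0.50 without that rat (adjusted p = 0.0876), and at 1500 mg/kg it was -0.19 (adjusted p = 0.688). It was 1.85 on the arrays with the rat's RNA in Cy5 and 0.04 on those with it in Cy3. Slc11a2, an importer of iron, rose by 0.41 at 3 h, a call that ended without either of 2 rats, and had 0.03 at 24 h. Slc31a2, a copper carrier, rose by 0.30 at 6 h and fell by 0.25 at 24 h at 2000 mg/kg.

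Among sugar carriers, 0 rose and 4 of 19 fell at 24 h and 2000 mg/kg, and 5 fell at 1500 mg/kg. Over all rows 11.8% rose and 12.5% fell at 2000 mg/kg, and 11.4% fell at 1500 mg/kg. Slc2a2, the main glucose carrier of hepatocytes, had -0.63, -0.33 and 0.05 in rats given 2000 mg/kg, against -0.13, 0.13 and 0.48 in vehicle rats. The groups overlapped in part, and the difference was -0.46 ± 0.12 (adjusted p = 0.00153). At 1500 mg/kg it was -0.71 without overlap. Slc2a5, a fructose carrier, had -1.36, -0.45 and 0.07 at 6 h in rats given 2000 mg/kg, against -0.18, 0.35 and 0.99 in vehicle rats. That overlap was slight, with a fall of 1.03 ± 0.27 (adjusted p = 0.00593). Slc2a1, the glucose carrier of most other cells, rose by 0.59 ± 0.12 at 3 h, although its 2 probes had -0.21 and 1.40. Slc2a13, which carries myo-inositol, rose by 0.54 at 6 h and fell by 0.51 at 24 h.

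Several nucleoside carriers fell. At 6 h, Slc29a1, the equilibrative carrier through which adenosine crosses the membrane, had -0.77, -0.73 and -0.25 in rats given 2000 mg/kg, against 0.20, 0.32 and 0.49 in vehicle rats. The groups did not meet. It fell by 0.97 ± 0.15 at 6 h (adjusted p = 1.26e-06) and by 0.73 at 24 h. Slc28a2, a sodium-coupled carrier of purine nucleosides, had -1.67, -0.96 and -0.41 at 24 h in rats given 2000 mg/kg, against -0.25, 0.34 and 0.63 in vehicle rats. There was no overlap either, and the difference was -1.34 ± 0.18 (adjusted p = 1.64e-08). In the same group of 20, 2 members rose at 24 h and 2000 mg/kg and 4 fell, against 11.8% and 12.5% of all rows. The 2 were Slc35e3, an orphan of the nucleotide sugar family (0.81 ± 0.08), and Slc35b1, a carrier of the endoplasmic reticulum (0.50). Slc35d2 fell by 0.87 at 6 h.

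Among dicarboxylate carriers Slc13a3, which takes up succinate and related acids, had -1.92, -1.10 and -0.68 at 24 h in rats given 2000 mg/kg, against -0.32, -0.17 and 0.33 in vehicle rats. The dosed rats lay below the vehicle rats without exception. It fell by 1.11 ± 0.17 (adjusted p = 5.66e-07), and its relative Slc13a2 fell by 0.71 ± 0.10. The lactate carrier Slc16a1 had 0.22 and did not pass.

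Of the 40 carriers of inorganic ions, acid and base, 8 rose and 3 fell at 24 h and 2000 mg/kg, with a median of -0.07. Over all rows 11.8% rose and 12.5% fell. Slc4a1ap, not a carrier, is 1 of the 8. Slc17a3, a carrier of phosphate and of urate and other organic anions, had 1.27, 1.63 and 1.86 in rats given 2000 mg/kg, against -0.21, 0.09 and 0.19 in vehicle rats. This was the smallest p among the members, with tight groups that did not overlap. The difference was 1.58 ± 0.13 (adjusted p = 3.06e-15), whereas at 6 h it was -0.40 ± 0.13 (adjusted p = 0.0292). Slc17a1, from the same family, rose by 0.74, Slc12a2, the sodium-potassium-chloride cotransporter, by 0.73, and Slc4a4, a sodium-bicarbonate cotransporter, by 0.61. Slc8a1, the sodium-calcium exchanger, had -0.93 at 6 h and 2000 mg/kg, but -0.46 (adjusted p = 0.144) without 1 dosed rat at -3.46.

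In the mixed group, 4 of 24 rose and 6 fell at 24 h and 2000 mg/kg, against 11.8% and 12.5% of all rows. Slc15a1, an importer of small peptides best known from the gut, had 0.23, 1.94 and 3.81 in rats given 2000 mg/kg, against -0.49, -0.25 and 0.33 in vehicle rats. Of the 6 dosed rats, 1 lay within the vehicle range and the others spread widely above it. The difference was 2.25 ± 0.46 (adjusted p = 0.000112), and 20.83% of its values over the arrays were exact zeros. Slc19a2, which takes up thiamine, passed with a fall in all 6 comparisons, but its 3 probes ranged from -0.95 to -0.02 at 3 h, from -0.94 to -0.10 at 6 h and from -1.40 to -0.52 at 24 h (2000 mg/kg). Slc25a33, which rose, was the other member called in all 6. At 24 h Slc19a2 had -1.09, -0.76 and -0.25 in rats given 2000 mg/kg, against -0.06, 0.15 and 0.39 in vehicle rats. The groups were apart, with a difference of -0.90 ± 0.12 (adjusted p = 4.93e-08). At 3 h the fall was 0.43, and without 1 vehicle rat it was 0.37 and missed the threshold (adjusted p = 0.0594). Slc66a1, which exports basic amino acids from lysosomes, rose by 0.67 at 24 h. Slc49a4, a lysosomal membrane protein, rose by 0.94, 0.92 and 0.87 at 3, 6 and 24 h, the last falling to 0.53 (adjusted p = 0.0739) without 1 dosed rat. Among the 4 fatty acid carriers, none passed at 2000 mg/kg. Slc27a1 fell at 24 h and 1500 mg/kg, and its toxic response was lower at 24 h than at 6 h.

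Individual rats differed in how many carriers moved. Of the 37 members called at 6 h and 2000 mg/kg, 5 of 6 rats given 1500 mg/kg had 34 or 35 beyond the values of all vehicle rats, on the called side, and the other had 10. That rat had 0.10 for Slc16a10 and -0.02 for Slc22a5, within the vehicle range for both. Without it the 6 h count at 1500 mg/kg was 36 in place of 26. At 24 h, where 61 members were called, 2 rats given 1500 mg/kg had 30 and 33 beyond vehicle, and the other 4 had 47 to 55. Those 2 rats were also at 0.10 and 0.18 for Slc48a1, against 0.08 to 0.25 in vehicle rats. Rats given 2000 mg/kg had 42 to 55 at 24 h and 29 to 37 at 6 h, while rats given 150 mg/kg had 6 to 16 and 4 to 16. The members counted here were called on the 2000 mg/kg rats against these same vehicle rats, so some separation is built in and the counts are a description. Over all 2116 rows called at 6 h, the rat with 10 carriers had 18.3% beyond vehicle and the other 5 had 80.7% to 90.2%. Over all 4609 rows called at 24 h, the 2 rats had 53.1% and 37.7% and the other 4 had 81.9% to 91%. Rats given 150 mg/kg had 16.4% to 33.1% of all called rows beyond vehicle at 6 h and 11.8% to 27.3% at 24 h.

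**Figure D5:**
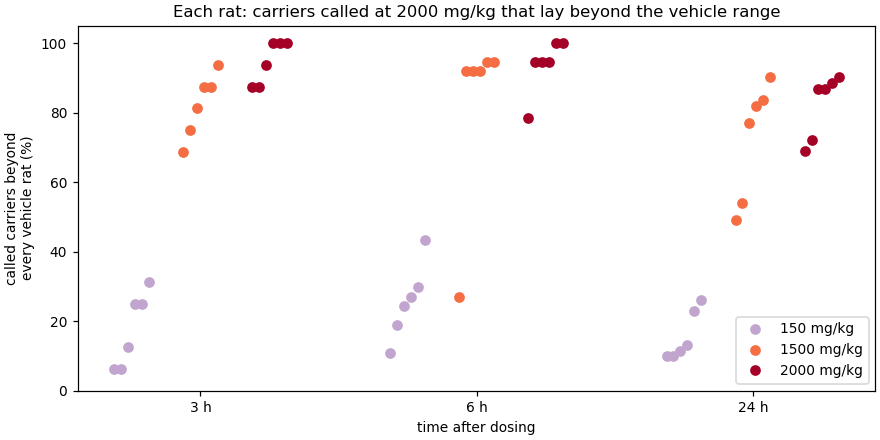
Percent of the carriers called at 2000 mg/kg that lay beyond all vehicle rats of the same time on the called side, for each rat (points) by time and dose. At 6 h 1 rat given 1500 mg/kg has 10 of 37, and at 24 h 2 have 30 and 33 of 61.

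Whether the toxic response itself changed between times was tested as the mean of both toxic doses against vehicle at one time minus that at the earlier time. From 3 to 6 h, 7 members had a higher difference and 6 a lower one, with 2.13% and 1.8% of all rows. Slc30a2 gained 1.66 ± 0.31 (adjusted p = 0.000245) and Slc25a25 had -1.41 ± 0.31 (adjusted p = 0.0025). From 6 to 24 h, 15 were higher and 29 lower, with 7.54% and 8.13% of all rows. The largest gains were Slc15a1 (2.23), Slc17a3 (1.72), Slc7a1 (1.69) and Slc7a5 (1.64). Slc16a10 had the largest loss, at -1.96 ± 0.29, followed by Slc1a6 (-1.20), Slc6a6 (-1.20) and Slco1a4 (-1.17). Slc2a13 and Slc31a2, called in opposite directions at 6 and 24 h, had -0.96 ± 0.15 and -0.44 ± 0.07.

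No carrier differed between 2000 and 1500 mg/kg in limma at any time, where 0.0105% of all rows did at 3 h, 0.00527% at 6 h and 0% at 24 h. At an unadjusted p of 0.05 or below there were 7, 10 and 13 members, and each other fit tried (the rat as a random block, the groups compared alone, weights, the blank set) also gave 0. The smallest p was that of Slc40a1 at 24 h, higher by 1.14 ± 0.27 at 2000 mg/kg (adjusted p = 0.485), the gene that rests on 1 rat.

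At 150 mg/kg the limma count was 0 at 3, 6 and 24 h for members and 0% for all rows. At an unadjusted p of 0.05 or below there were 3, 7 and 4 members. The nearest was Slc35e3 at 6 h, with 0.08, 0.31 and 0.53 in rats given 150 mg/kg, against -0.29, -0.07 and 0.09 in vehicle rats. The ranges overlapped slightly, and the difference of 0.40 ± 0.08 had an adjusted p of 0.0837. With the rat as a random block, and with quality weights, this 1 member passed at 6 h and none did at the other times.

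Markers of other cell types were followed as lists. Of 10 neutrophil genes 4 were measured, and 3 rose at 24 h and 1500 mg/kg and 2 at 2000 mg/kg. At 24 h their mean log2 ratio over the list was -0.40 (lowest), -0.11 (median) and 2.33 (highest) in rats given 2000 mg/kg. In vehicle rats it was -0.57, -0.12 and 0.14, so the medians were close. The rat with 3.63 for Slc40a1 had 4.55 for S100a9, a neutrophil and monocyte gene, and a link between these values was not tested. Within the list, S100a9 (1.64) and Lcn2 (1.09) rose at 24 h and 2000 mg/kg, while S100a8 (0.37) and Cxcr2 (-0.14) were not called. Of 11 measured hepatocyte markers, 1 rose and 0 fell at 24 h and 2000 mg/kg, and their list mean ran from 0.21 to 0.39, against 0.01 to 0.39 in vehicle rats. Of the other lists, 4 of 10 lymphocyte, 3 of 10 macrophage, 4 of 8 endothelial, 3 of 8 stellate cell and 2 of 8 erythroid markers fell and 0 of 5 cholangiocyte markers moved. None of these lists had a rise at that time and dose. Over all rows 11.8% rose and 12.5% fell there, and 10.2% rose at 24 h and 1500 mg/kg. The lists were not tested against these shares. The part of these markers in the carriers' changes was not tested.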

How the data were processed

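The authors deposited 1 log ratio per probe and array, treated here as log10 of Cy5 over Cy3, together with a list of the dose of each rat. Background correction, dye normalization and log base were not given in the sources used here. Array medians lay between 0 and 0.000258, 7.74% of values were exact zeros and 0.836% were blank. Another base would multiply each difference by the same factor.

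After conversion to log2, ratios of arrays with the pool in Cy5 were given the opposite sign, and each rat's value is the mean of its 2 arrays. Groups follow the labelled time and the deposited dose. Whether the pooled vehicle rats are those measured here is not stated, and p-values measure the spread between rats. Of 22075 probes, 12750 had 1 symbol in the platform annotation, and probes of 1 symbol were averaged (43 members had more than 1). The 9320 probes without a symbol and the 5 with several each formed a row of their own. Shares over all rows include them. Contrasts of the 12 groups were fitted over 72 rats with limma 3.58.1 (R 4.3.3), with Benjamini-Hochberg adjustment over 18978 rows. No filter on low values was applied, so all 222 members were tested. The fit was tested on simulated data. Tables used Python 3.11.15, pandas 2.3.3 and NumPy 2.4.6, and figures Matplotlib 3.10.9.

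Members, lists and tests were chosen with earlier results of these data known. Named genes were members past the threshold with the up to 12 largest differences each way per time at 2000 mg/kg, up to 4 each way at 1500 mg/kg and per difference between times or doses, the 3 of smallest p per substrate group at 24 h and 2000 mg/kg, the 4 of smallest p per time at 150 mg/kg, and 31 known liver carriers, of which 24 are among the members. Slc4a1ap, Slc7a6os, Slc35b1, Slc4a4, Slc6a8 and Slc6a20a fall outside this rule and were named after their values were seen. Other genes meet the rule but are not described above, among them Slc46a3, Slc18a3, Slc44a1, Slc13a4, Slc23a1, Slc22a15, Slc16a6, Slc41a2, Slc25a17, Slc34a3, Slc5a1 and Slc2a8. At 2000 mg/kg, the calls of Slc13a4, Slc22a15 and Slc23a1 (6 h) and Slc46a3 (3 h) ended without any of 7, 7, 6 and 4 single rats. The 122 changes of named carriers counted below include these genes. In RefSeq promoter windows of 250 bases, 12 motifs were searched on both strands: the cAMP response element TGACGTCA, the antioxidant core TGACNNNGC, the amino acid response element TGATGNAAN, the metal core TGCNCNCG, the E-box CACGTG, the stress element part CCACG, which can overlap the E-box, and by name the NF-kB, serum response, HNF1, glucocorticoid response, heat shock and PPAR elements. The motifs shown were picked after their matches were seen. Alternatives were array centring, either dye orientation, complete rows, zeros as missing, 1 row per probe, a random block, compared groups alone, quality weights, the blank set as covariate or split, 12 rats of poor dye exchange left out, and each rat left out.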

Additional observations from a re-analysis of the deposited data

Results flagged for a closer look

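In 4 of the 52 sets of 6 rats whose values are given, 1 rat stood far from the other 5, where chance gives about 1 in 20. They were a rat given 2000 mg/kg at 3 h with 1.39 for Slc25a32, a rat given 2000 mg/kg at 24 h with -2.16 for Slc1a6, and a vehicle rat at 24 h with 0.06 for Slc3a2 and -0.11 for Slco1b2, the same rat in both genes. The raw ratios of a rat's 2 arrays, of opposite dye, had a median correlation of -0.42. It was 0.31 in that vehicle rat and -0.01 in the Slc25a32 rat, both among the 12 rats of poor dye exchange. In the Slc1a6 rat it was -0.68.

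The toxic response differed between times in limma's test of the difference. From 3 to 6 h the largest gains were Slc30a2 (1.66), Slc25a44 (0.68), Slc66a1 (0.61) and Slc41a3 (0.48), and the largest losses Slc25a25 (-1.41), Slc22a23 (-0.73), Slc25a1 (-0.65) and Slc2a1 (-0.54). Those of Slc25a44, Slc66a1, Slc41a3, Slc25a1 and Slc2a1 lost the threshold without any of 3, 5, 4, 2 and 1 single rats, in that order, and 51.39% of the values of Slc25a44 were exact zeros. The gains from 6 to 24 h were led by Slc15a1 (2.23), Slc17a3 (1.72), Slc7a1 (1.69) and Slc7a5 (1.64), and the losses by Slc16a10 (-1.96), Slc1a6 (-1.20), Slc6a6 (-1.20) and Slco1a4 (-1.17).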

How the results depend on the processing

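Of 122 changes of named carriers past the threshold, none turned in direction under an alternative, and 95 stayed past it with each rat left out. With 1 row per probe, the probe of smallest p stood for its gene, so that alternative could hardly show a turn. Among 19 such changes at toxic doses in genes with more than 1 probe, 2 had probes of opposite sign. Centring kept 106 of 106, the blank set as a covariate 122 of 122, the random block 118 of 122 and the compared groups alone 100 of 122. Rats without the blank set kept 60 of 106 and rats with it 53 of 74, with fewer rats in each, and 84 of 106 stayed without the 12 rats of poor dye exchange.

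The number of carriers called moved by over 1.5 times as follows. At 3 h and 1500 mg/kg, 11 became 17 with the random block and 20 with quality weights. At 3 h and 2000 mg/kg, 16 became 26 with the block, 9 on Cy5 arrays alone, 7 without the blank-set rats and 7 without the rats of poor dye exchange. At 6 h and 1500 mg/kg, 26 became 46 with the block, 55 with weights and 5 without the blank-set rats. At 6 h and 2000 mg/kg, 37 became 60, 68 and 11 under the same 3, and 24 without the rats of poor dye exchange. At 24 h and 1500 mg/kg, 59 became 27 in the compared groups alone and 14 without the blank-set rats. At 6 h and 150 mg/kg the block and the weights gave 1 for 0, and between 3 and 6 h they gave 22 and 24 for 13.

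With each rat left out, counts ran from 9 to 12 and 12 to 20 at 3 h (1500 and 2000 mg/kg), 22 to 36 and 29 to 38 at 6 h, 48 to 67 and 53 to 65 at 24 h, 0 to 1 at 6 h and 150 mg/kg, and 6 to 19 and 41 to 47 for the differences between times. The 13 members that differed between 3 and 6 h became 6 and 7 without 1 or another vehicle rat of 3 h. Apart from the smaller subsets of rats, the cause was not tested. No paired analysis was possible because rat numbers differ between groups.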
